A study of Mus musculus with 4 samples.

Results

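RNA levels of cell junction genes in P10 testes were examined for 9 genes, which were taken by name from the deposited table of 55820 loci and were all present in it. They comprise the tight junction genes *Cldn11*, *Cldn3*, *Cldn5*, *Ocln*, *F11r*, *Jam3* and *Tjp1*, the gap junction gene *Gja1* and the adherens junction gene *Cdh2*. The RNA came from whole testes of male C57BL/6J mice at P10 (postnatal day 10), with 2 libraries from control mice and 2 from Mps1sKO mice. In Mps1sKO mice, a floxed *Mps1* gene is removed by Cre recombinase under *Stra8*, which acts in germ cells from early spermatogonia onward, and the labels call the other group control without giving its alleles. The libraries are biological replicates, but the number of mice behind each is not stated.

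The blood-testis barrier is a belt of junctions between neighbouring Sertoli cells, the somatic cells that nurse the germ cells, and it separates the meiotic compartment of the tubule from the basal one. Claudins and occludin seal the space between the cells, junctional adhesion molecules join the membranes, and ZO proteins tie these to actin. Connexin channels and cadherins couple and hold the cells. In mice the barrier closes after the first germ cells have entered meiosis, so P10 testes hold a barrier under construction. The deletion was made in germ cells, and the comparison therefore asks how junction genes expressed mainly by the cells around them differed when germ cells lacked *Mps1*.

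The counts summed to between 23311689 and 28607746 per library, so a limit of 3 counts lay between 0.105 and 0.129 CPM (counts scaled by TMM and the library total), and all 9 genes were above it in every library. Each of the 9 passed edgeR's filter on low counts, as did 20561 loci in all. *Ttk*, which encodes MPS1, was measured at 27.9 and 32.6 CPM in control and at 13.03 and 12.2 CPM in Mps1sKO libraries, which is −1.26 as a log2 fold change (standard error, SE, 0.129, edgeR adjusted p = 0.0461). Of the 25 Sertoli markers 23 were tested, and *Clu*, *Aard* and *Ctsl* had the highest counts among them.

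*Gja1*, which encodes connexin 43, had the clearest difference among the 9 genes, being 1.31-fold higher in Mps1sKO testes. *Ocln* was 1.18-fold higher, and *F11r* and *Cdh2* were also above both control libraries in both Mps1sKO libraries, by smaller amounts. *Cldn11*, the main claudin of Sertoli cells, did not separate the genotypes. *Cldn3* was the only gene with lower levels, at 0.673 of control. None of the 9 had an adjusted p below 0.05 with edgeR, where 0.0292% of all tested loci did. With DESeq2 and limma-voom 0 of the 9 passed, against 0.105% and 0.0146% of all loci, and DESeq2 gave no adjusted p for *Cldn3*. At an unadjusted p below 0.05 from edgeR there were 2 of the 9, *Gja1* and *Ocln*, against 9.30% of all tested loci.

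**Figure D1:**
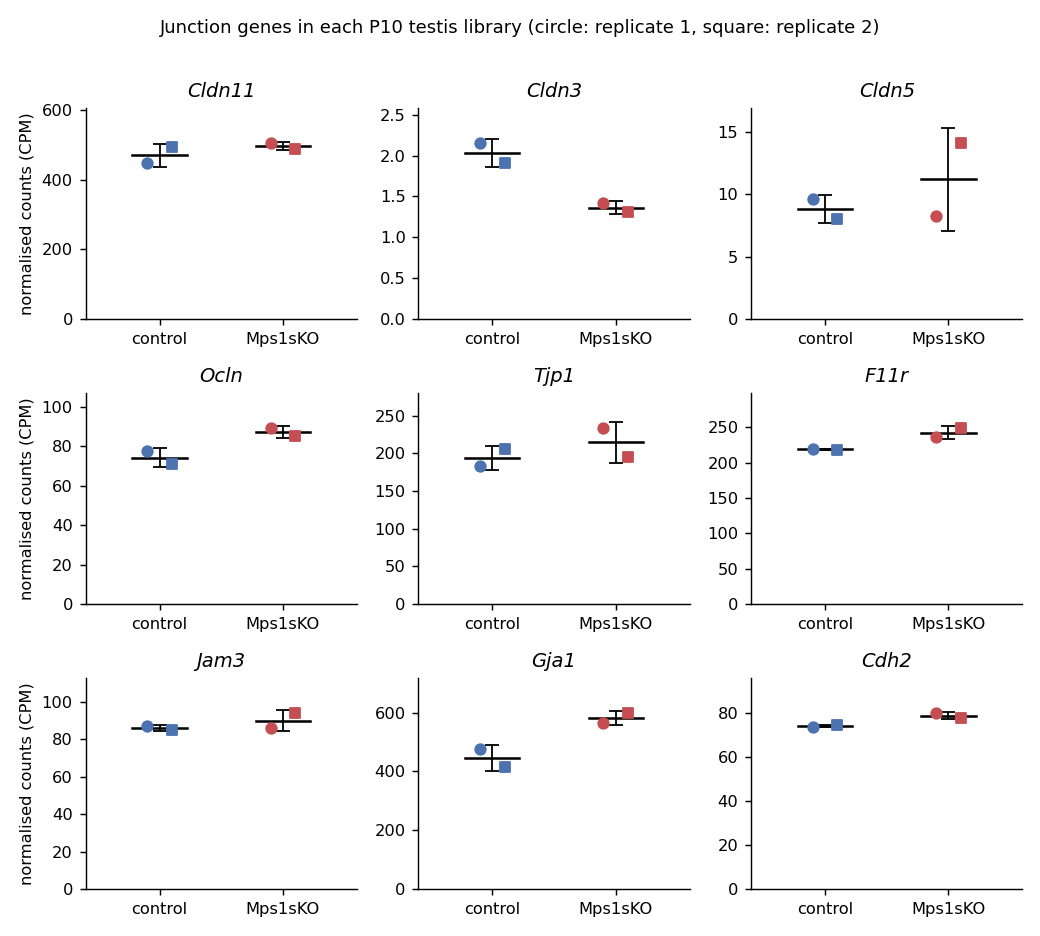
Normalised counts (CPM, linear axes from 0) of the 9 junction genes in each library, with control libraries in blue and Mps1sKO libraries in red, circles for replicate 1 and squares for replicate 2, and black lines for the mean ± SD of 2 libraries. The groups are apart for *Gja1*, *Ocln*, *F11r* and *Cdh2*, which are higher in Mps1sKO testes, and for *Cldn3*, which is lower, and they overlap for the other 4 genes.

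Levels of different genes were compared per gene length, on the FPKM values that the authors deposited. *Cldn11* was the most abundant, with 257 ± 13.9 FPKM (SD over 4 libraries), and *F11r*, which encodes JAM-A, followed with 86.1 ± 5.70 FPKM. *Gja1* came next with 49.9 ± 8.26 FPKM. *Jam3*, which encodes JAM-C, and *Tjp1*, which encodes ZO-1, stood at 27.4 ± 1.37 and 26.01 ± 2.78 FPKM, and their ranges overlapped, so their order is not settled. *Ocln* had 19.0 ± 1.96 FPKM. *Cdh2*, which encodes N-cadherin, had 9.42 ± 0.385 FPKM and *Cldn5* had 7.04 ± 1.99 FPKM, again with overlapping ranges. *Cldn3* was last with 1.34 ± 0.312 FPKM, so within a library *Cldn11* was between 140 and 252 times as abundant per length as *Cldn3*.

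**Figure D2:**
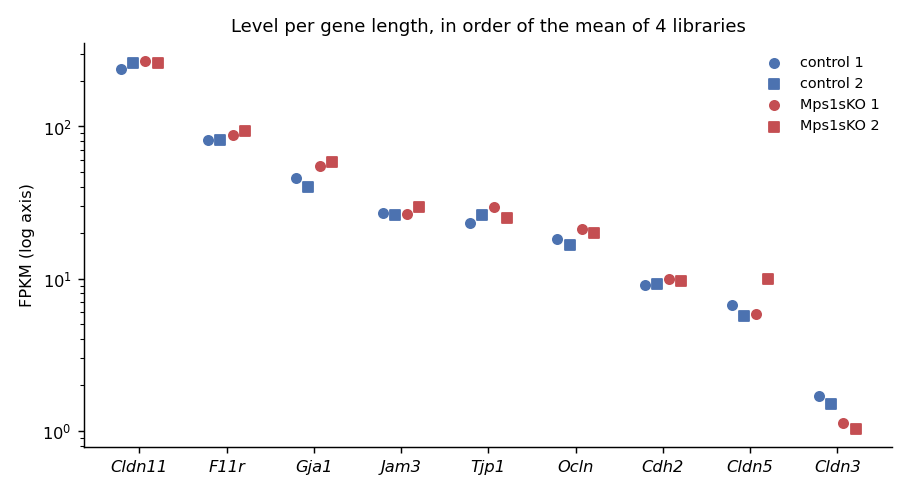
FPKM of the 9 junction genes on a log axis, ordered by the mean of the 4 libraries, with 1 point for each library. *Cldn11* lies above 237 FPKM in every library and *Cldn3* below 1.70 FPKM, and only the neighbours *Jam3* and *Tjp1*, and *Cdh2* and *Cldn5*, overlap.

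The promoters of *Cldn11*, *Gja1* and *Cldn3* are shown because these are the most abundant claudin gene, the gene with the clearest difference and the only gene with lower levels. The sequences are from RefSeq on GRCm38.p6, run on the strand of the gene from 250 bases before the start site to 50 bases after it, and matched 7 of the 8 genes looked up (*Jam3* had no entry). Capitals mark matches, on either strand, to the GC box GGGCGG, the TATA box TATAAA, the GATA motif AGATAA, the SOX motif ACAAAG, the AP-1 motif TGANTCA, the cAMP response element half-site TGACG and the E-box CACCTG.
*Cldn11* (chr3:31149670-31149969, plus strand): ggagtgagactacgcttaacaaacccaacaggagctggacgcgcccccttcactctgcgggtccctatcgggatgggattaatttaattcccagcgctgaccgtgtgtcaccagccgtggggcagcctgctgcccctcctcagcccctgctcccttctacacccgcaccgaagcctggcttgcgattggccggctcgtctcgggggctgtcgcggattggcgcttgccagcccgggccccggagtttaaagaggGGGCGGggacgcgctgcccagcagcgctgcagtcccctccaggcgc
*Gja1* (chr10:56377050-56377349, plus strand): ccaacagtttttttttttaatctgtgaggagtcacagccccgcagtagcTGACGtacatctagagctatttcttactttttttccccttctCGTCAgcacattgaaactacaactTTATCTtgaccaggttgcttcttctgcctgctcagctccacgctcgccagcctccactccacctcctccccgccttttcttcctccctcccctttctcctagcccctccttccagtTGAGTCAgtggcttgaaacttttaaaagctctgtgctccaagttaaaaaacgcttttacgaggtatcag
*Cldn3* (chr5:134985964-134986263, plus strand): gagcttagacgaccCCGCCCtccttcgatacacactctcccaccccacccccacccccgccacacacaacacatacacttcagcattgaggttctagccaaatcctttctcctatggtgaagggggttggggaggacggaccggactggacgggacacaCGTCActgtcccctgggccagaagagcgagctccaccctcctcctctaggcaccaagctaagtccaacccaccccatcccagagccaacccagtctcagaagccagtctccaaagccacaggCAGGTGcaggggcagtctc

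The *Gja1* window stood apart in base composition, with 47.7% G and C against 66.3% for *Cldn11* and 60.7% for *Cldn3*. It was the only one of the 7 first windows without a GC box, which 35.6% of all 32817 promoter windows of the same length hold. It had an AP-1 motif at position −19 from the start site, where 7.81% of all windows hold one anywhere, and a GATA motif at position −135, which 11.2% of all windows hold. Among the 7 genes *F11r* also had an AP-1 motif, and none had the TATA box (13.6% of all windows) or the SOX motif (18.7%). The half-site TGACG was found in *Gja1* and *Cldn3*, against 20.8% of all windows, and the E-box in *Cldn3*, *Ocln* and *F11r*, against 20.2%. These matches describe the letters of the windows and were not tested against the expression values.

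Claudins form the strands of the tight junction, and 3 of the 9 genes belong to this family. *Cldn11* (ENSMUSG00000037625, chromosome 3 from 31149920 to 31164324, plus strand, 3 exons), whose loss makes male mice sterile, had 447 and 493 CPM in control and 506 and 489 CPM in Mps1sKO libraries. The higher control library lay between the Mps1sKO libraries, so the groups overlapped. The log2 fold change was 0.08 (SE 0.0907, edgeR adjusted p = 0.807), and its 95% interval ran from −0.13 to 0.29.

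*Cldn5* (ENSMUSG00000041378, chromosome 16 from 18776847 to 18778262, plus strand, 1 exon), which seals vessel walls and is also made by Sertoli cells, had 9.62 and 8.04 CPM in control and 8.29 and 14.1 CPM in Mps1sKO libraries. A single library, Mps1sKO replicate 2, was high, and the other Mps1sKO library lay between the controls. As a log2 fold change this was 0.35 (SE 0.248, edgeR adjusted p = 0.677). It was −0.09 without Mps1sKO replicate 2 and 0.68 without Mps1sKO replicate 1, so its direction rested on 1 library. Of 14 endothelial markers, 4 were highest in Mps1sKO replicate 2 and 6 in Mps1sKO replicate 1, and their summed level was 224 and 217 CPM in control and 231 and 230 CPM in Mps1sKO libraries. The part of endothelial RNA in the *Cldn5* values was not tested.

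*Cldn3* (ENSMUSG00000070473, chromosome 5 from 134986214 to 134987472, plus strand, 1 exon), a claudin of newly forming Sertoli junctions, had 58 and 55 counts in control and 33 and 35 counts in Mps1sKO libraries. Scaled, these were 2.15 and 1.91 CPM against 1.42 and 1.31 CPM, and both Mps1sKO libraries lay below both controls. It was 1 of 9 genes in this position, where 21.1% of all tested loci were below. The log2 fold change was −0.57 (SE 0.247, edgeR adjusted p = 0.537), with a 95% interval from −1.15 to 0.00. With DESeq2 it was −0.57 with a wider SE of 0.481 (DESeq2 unadjusted p = 0.239). Its unadjusted p was 0.0507, and 0 of the 9 genes passed the study's relaxed cut-offs (fold change above 1.2 and unadjusted p below 0.05) toward lower levels, against 4.95% of all tested loci. The exon of *Wbscr25* on the other strand overlaps *Cldn3* and had 7, 15, 1 and 3 counts in the same order of libraries, and how reads were divided by strand is not stated.

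*Cldn11* alone made up between 88.1% and 89.4% of the summed FPKM of the 35 genes named as claudins, 14 of which had no count in any library. The next of the 35 was *Cldn12*, with 4.29% to 5.04%. *Cldnd1*, with a mean of 26.5 FPKM, and *Cldnd2* were not counted among the 35. The share of *Cldn3* was 0.630% and 0.513% in control and 0.374% and 0.351% in Mps1sKO libraries, the lower values again in both Mps1sKO libraries.

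**Figure D3:**
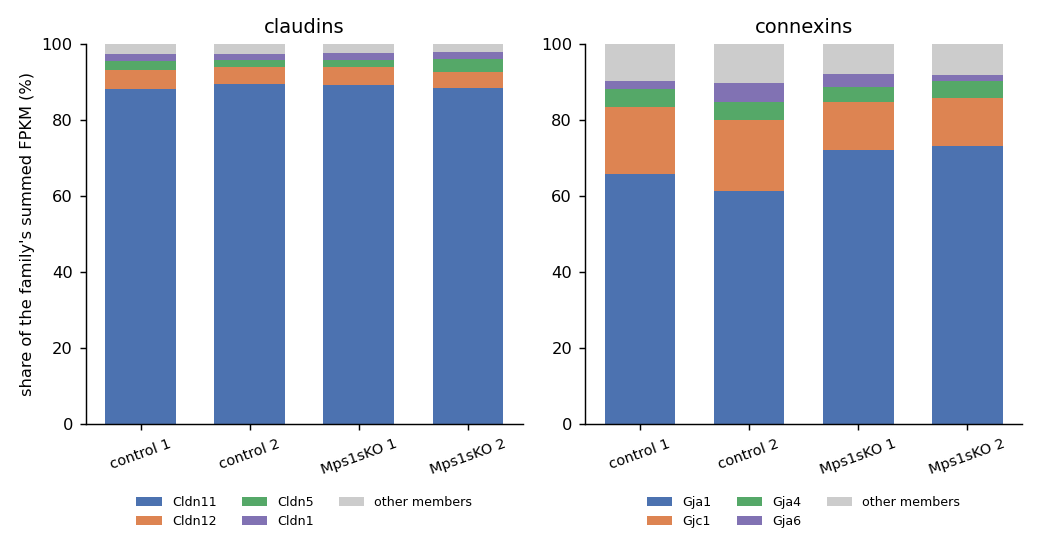
Share of the summed FPKM of all claudins (left, *Cldnd1* and *Cldnd2* not counted) and all connexins (right) in each of the 4 libraries, stacked to 100%. *Cldn11* takes 88.1% to 89.4% of the claudins in every library, while the share of *Gja1* among the connexins is 65.8% and 61.3% in control and 72.1% and 73.2% in Mps1sKO libraries.

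Occludin and the junctional adhesion molecules span the membrane beside the claudins. *Ocln* (ENSMUSG00000021638, chromosome 13 from 100496507 to 100552718, minus strand) had 77.5 and 70.8 CPM in control and 89.3 and 85.0 CPM in Mps1sKO libraries. The groups did not overlap, and the gap between them was as wide as the gap between the controls, at 0.13 on the log2 scale each. The log2 fold change was 0.23 (SE 0.0936, edgeR adjusted p = 0.527), with a 95% interval from 0.02 to 0.45. The unadjusted p was 0.0391, but the fold change of 1.18 was under the relaxed cut-off, and without control replicate 2 it was 0.17 on the log2 scale.

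*F11r* (ENSMUSG00000038235, chromosome 1 from 171437535 to 171464603, plus strand), which germ cells and blood cells also use, had 219 and 218 CPM in control and 236 and 249 CPM in Mps1sKO libraries. Its control libraries were nearly equal, and both Mps1sKO libraries were above them. The log2 fold change was 0.15 (SE 0.0853, edgeR adjusted p = 0.619). *Jam3* (ENSMUSG00000031990, chromosome 9 from 27097384 to 27155421, minus strand), which spermatids also need, had 87.2 and 85.0 CPM in control and 86.0 and 94.3 CPM in Mps1sKO libraries. The groups overlapped, and the log2 fold change was 0.07 (SE 0.0920, edgeR adjusted p = 0.845), from −0.15 to 0.28. The antisense gene *Gm48796* shares exon sequence with *Jam3* and had 465, 462, 451 and 451 counts in the same order of libraries. Within each library *F11r* was between 3.02 and 3.30 times as abundant as *Jam3* per length.

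*Tjp1* (ENSMUSG00000030516, chromosome 7 from 65296165 to 65527781, minus strand), the scaffold that links tight junctions to actin, had 183 and 205 CPM in control and 234 and 195 CPM in Mps1sKO libraries. Mps1sKO replicate 1 was high and the other Mps1sKO library lay between the controls. On the log2 scale the difference was 0.14 (SE 0.114, edgeR adjusted p = 0.707), and it ranged from 0.0092 without Mps1sKO replicate 1 to 0.27 without Mps1sKO replicate 2.

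*Gja1* (ENSMUSG00000050953, chromosome 10 from 56377330 to 56402513, plus strand) forms the gap junction channels between Sertoli cells and between Sertoli and germ cells, and Leydig cells also express it. It had 477 and 415 CPM in control and 566 and 599 CPM in Mps1sKO libraries. Both Mps1sKO libraries were above both controls, and control replicate 2 was the lowest. The log2 fold change was 0.39 (SE 0.0993, edgeR adjusted p = 0.494), with a 95% interval from 0.16 to 0.62. The unadjusted p was 0.00506, which made *Gja1* the 1 gene of 9 to pass the relaxed cut-offs toward higher levels, against 3.09% of all tested loci. With DESeq2 the log2 fold change was 0.39 (adjusted p = 0.138). Over the other settings the adjusted p ran from 0.0114 without the filter on low counts to 1.00. *Gja1* no longer passed the relaxed cut-offs without control replicate 2, where the log2 fold change was 0.29, or after scaling to the Sertoli markers, where it was 0.16 (unadjusted p = 0.253).

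The share of *Gja1* in the summed FPKM of the 20 connexins was 65.8% and 61.3% in control and 72.1% and 73.2% in Mps1sKO libraries. *Gjc1*, which encodes connexin 45, went the other way, with 62.0 and 61.4 CPM in control and 48.2 and 49.97 CPM in Mps1sKO libraries (log2 fold change −0.33, SE 0.0893, edgeR adjusted p = 0.494). The ratio of *Gja1* to *Gjc1* per length was 3.75 and 3.29 in control and 5.72 and 5.85 in Mps1sKO libraries, so it was higher in both of the latter. This ratio is taken within a library and does not depend on the scaling between libraries. Each of these genes already separated the genotypes, in opposite directions, so the separation of their ratio follows from that and is not further evidence.

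*Cdh2* (ENSMUSG00000024304, chromosome 18 from 16588877 to 16809246, minus strand), the cadherin of Sertoli contacts, had 73.7 and 74.3 CPM in control and 80.1 and 77.6 CPM in Mps1sKO libraries. The groups did not overlap, but the difference was small. Its log2 fold change was 0.09 (SE 0.0867, edgeR adjusted p = 0.766), with a 95% interval from −0.11 to 0.29. Together with *Gja1*, *Ocln* and *F11r* it was 1 of 4 genes with both Mps1sKO libraries above both controls, where 20.3% of all tested loci were above.

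A positive log2 fold change was found for 10293 of all 20561 tested loci and for 8 of the 9 genes as a group. The median of the 9 was 0.14, against 0.00 for all tested loci. Their summed level was 1577 and 1572 CPM in control and 1806 and 1804 CPM in Mps1sKO libraries, which is 14.7% higher. *Gja1* and *Cldn11* make up most of this sum, but most of the difference lay in *Gja1*. Its mean was 446 CPM in control and 583 CPM in Mps1sKO libraries, against 470 and 497 CPM for *Cldn11*. The summed level of the 25 Sertoli markers was 20.3% higher in Mps1sKO testes, with 10676 and 10610 CPM in control and 12928 and 12684 CPM in Mps1sKO libraries. The summed level of 20 germ cell markers was 25.4% lower, with 2382 and 2685 CPM in control and 2052 and 1730 CPM in Mps1sKO libraries. At the relaxed cut-offs 8 of the 23 tested Sertoli markers were higher and 1 was lower, 16 of the 20 germ cell markers were lower and 0 were higher, and 2 of the 14 endothelial markers were higher and 1 was lower. None of the 9 peritubular myoid, 9 Leydig or 9 macrophage markers passed, and 2 of the 9 tested rete testis and duct markers were lower. Among all tested loci, 3.09% were higher and 4.95% were lower at these cut-offs. None of the Sertoli, germ cell or endothelial markers was at 0 in all libraries, but the Sertoli marker *Rhox5* had only 1 count in control replicate 1 and 0 in every other library. *Dazl*, *Uchl1* and *Piwil2* had the highest counts among the germ cell markers, and *Eng*, *Erg* and *Kdr* among the endothelial ones. In RNA of a whole testis, fewer cells of a type and less RNA per cell cannot be told apart. CPM values of one cell type also go up when another contributes less. By immunostaining at P10, the study counted fewer DDX4-positive germ cells per tubule in Mps1sKO than in control testes.

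**Figure D4:**
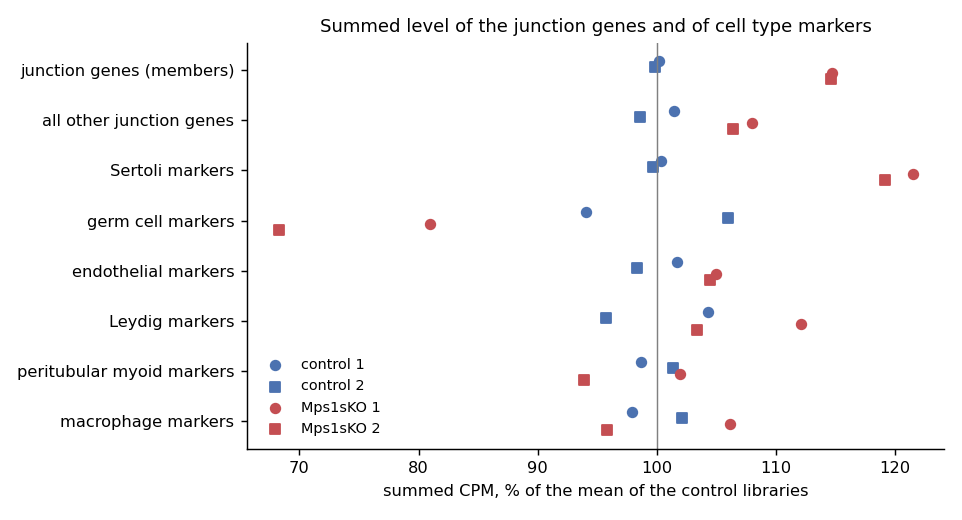
Summed CPM of the 9 junction genes, of the other junction genes and of the markers of 6 cell types in each library, as a percentage of the mean of the control libraries. The junction genes stand at 115% of control in both Mps1sKO libraries, the Sertoli markers at 121% and 119%, and the germ cell markers at 81.0% and 68.3%.

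Sertoli markers were not equally high in libraries of 1 genotype. Control replicate 2 held the lowest level of 16 of the 23 tested markers, and Mps1sKO replicate 2 held the highest level of 16. Of the 9 junction genes, 5 were lowest in control replicate 2 and 3 in control replicate 1. The highest level was in Mps1sKO replicate 2 for 4 of them and in Mps1sKO replicate 1 for 4. *Cldn11* was lowest in control replicate 1 and highest in Mps1sKO replicate 1. The shares of all tested loci in these positions were not computed. Of the 20 germ cell markers, 14 were highest in control replicate 2 and 16 were lowest in Mps1sKO replicate 2.

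Under TMM scaling the 23 tested Sertoli markers had log2 fold changes from −0.42 for *Trf* to 0.67 for *Amh*. The libraries were then scaled so that these 23 markers, each with equal weight, had the same mean log2 level in all of them. The median log2 fold change of all tested loci was then −0.23 and that of the 9 junction genes was −0.09. On this scale *Gja1* was at 0.16 (SE 0.131, edgeR adjusted p = 0.468) and no longer passed the relaxed cut-offs, and *Ocln* was at 0.00. *Cldn11*, *Tjp1*, *F11r*, *Jam3* and *Cdh2* had the opposite sign, between −0.17 and −0.09 on the log2 scale, with unadjusted p between 0.204 for *Jam3* and 0.557 for *Tjp1*. *Cldn3* was at −0.80 (SE 0.295, edgeR adjusted p = 0.146), with an unadjusted p of 0.0157. This scaling changes only the factor of each library and so moves all loci by nearly the same amount. The part of cell composition in the values was not tested.

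**Figure D5:**
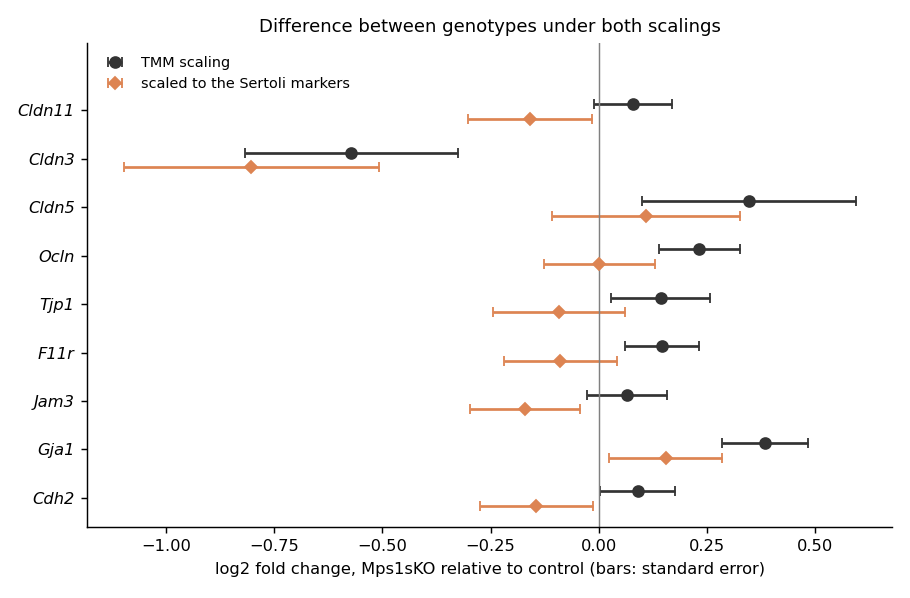
Log2 fold change of the 9 junction genes (points, with bars of 1 standard error) under TMM scaling in black and after scaling to the Sertoli markers in orange. Every gene lies further to the left under the second scaling, where *Gja1* is at 0.16 and *Cldn3* at −0.80.

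Beyond the 9 genes, 134 other junction genes were in the table and 104 were tested. Their median log2 fold change was 0.065, and 66 were positive and 38 negative, against 10293 and 10268 of all 20561 tested loci. At the relaxed cut-offs 7 of the 104 were higher and 4 were lower, against 3.09% and 4.95% of all tested loci. With edgeR 0 of the 104 had an adjusted p below 0.05 and 13 had an unadjusted p below 0.05, against 0.0292% and 9.30% of all tested loci. Among the other claudins with a mean of at least 1 CPM, *Cldn1* had 22.7 and 23.8 CPM in control and 28.1 and 26.5 CPM in Mps1sKO libraries (log2 fold change 0.23, unadjusted p = 0.0624 from edgeR). *Cldn12*, *Cldnd1*, *Cldn7*, *Cldn15*, *Cldn20* and *Cldn34c1* had log2 fold changes between −0.51 for *Cldn15* and 0.15 for *Cldnd1*. None of the 12 tested in this group passed the relaxed cut-offs.

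Of the 12 other tested membrane proteins of tight junctions, *Jam2* and *Lsr* passed the relaxed cut-offs toward higher levels, against 3.09% of all tested loci. *Jam2*, which encodes JAM-B, a binding partner of JAM-C, had 179 and 160 CPM in control and 212 and 209 CPM in Mps1sKO libraries (log2 fold change 0.31, SE 0.0923, edgeR adjusted p = 0.494). *Lsr*, which encodes a protein of the points where 3 cells meet, had 105 and 83.6 CPM in control and 115 and 133 CPM in Mps1sKO libraries (log2 fold change 0.39). Of 25 plaque and polarity genes, 3 passed toward higher levels, against the same 3.09% of all tested loci. They were the polarity genes *Pard3* at 0.34 and *Pard3b* at 0.33 and the scaffold gene *Magi2* at 0.47. The most abundant of this group by count, *Cdc42* and *Cgn* (cingulin), had log2 fold changes of 0.04 and 0.14 and did not pass.

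Among 32 genes of adherens junctions and of the ectoplasmic specialization, the actin-rich junction of Sertoli cells, *Eps8* and *Itga6* passed toward higher levels. Each had a log2 fold change of 0.28. Among all tested loci, 3.09% passed toward higher and 4.95% toward lower levels. *Eps8* encodes an actin-bundling protein and had 71.3 and 71.7 CPM in control and 88.5 and 85.3 CPM in Mps1sKO libraries. *Ctnnd2* passed toward lower levels at −0.48, and *Ctnnb1* (β-catenin) and *Itgb1*, the most abundant by count, were at 0.11 and 0.03. Of 15 other connexins and pannexins, 11 were negative, as were 10268 of all 20561 tested loci. Toward lower levels 2 of the 15 passed, *Gjc1* among them. *Panx1*, a channel protein related to connexins in shape, was at −0.28 (unadjusted p = 0.0527 from edgeR). The desmosome genes had 1 of 8 that passed, *Pkp1*, at −1.04 and under 1 CPM, while *Pkp4* and *Pkp2*, the most abundant by count, were at 0.09 and −0.03.

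Of 21 tested regulators of the barrier, *Gata6* and *Nfkb1* passed toward higher levels, at 0.39 and 0.34 on the log2 scale. Among all tested loci 3.09% passed in this direction. With edgeR 0 of the 21 had an adjusted p below 0.05, against 0.0292% of all tested loci. *Wnk1* and *Dmrt1*, the most abundant by count, were at 0.05 and −0.06, and the median of the group was 0.00.

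The loci closest to *Cldn11* in pattern were found by the mean absolute difference in centred log2 CPM over the 4 libraries, among 11109 loci of at least 10 CPM. The 5 closest were *Mpc1-ps*, *Zbtb20*, *Gm37494*, *Zfp760* and *Klhl7*, at 0.00223 to 0.00869, and none is a Sertoli marker of the list used here. A total of 1016 loci lay within 0.05 of *Cldn11*, so with 4 libraries this pattern was shared widely.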

How the data were processed

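The processed data are 1 table for 4 RNA-seq libraries of P10 testes, 2 per genotype, grouped by the genotype in the labels. The libraries were made with the NEBNext Ultra kit and read in pairs on a NovaSeq. The submitters' processing notes name HISAT2 2.0.5, featureCounts, DESeq2 1.16.1 and mm10. The strand setting and the annotation are not given in the sources used here. The authors deposited raw counts per gene and FPKM values with the gene length. The coordinates of all 9 genes equal those of GENCODE M21.

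Counts were tested on the whole table with edgeR 4.0.16 in R 4.3.3 (filterByExpr, TMM, quasi-likelihood F test), with p adjusted by Benjamini-Hochberg over 20561 loci. Standard errors are the log2 fold change divided by the root of F, and 95% intervals use the residual and prior degrees of freedom. An exact permutation test of 2 libraries against 2 cannot go below p = 0.333. Within a genotype the chi-square per degree of freedom between libraries was 8.49 (control) and 11.6 (Mps1sKO), above counting noise. Alternatives were DESeq2 1.42.0, limma-voom (limma 3.58.1), 3 other scalings, 2 other filters, annotated genes only, a replicate block and each library left out. A lone library left in a group was assumed to vary like the other group. The scripts were tested on simulated data.

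The 9 genes and all lists were chosen with earlier results of these data known and after the study's tables had been read. Text names all 9 genes, list genes past the relaxed cut-offs, the 2 most abundant of each list (3 for markers, in part) and claudins of at least 1 CPM. The genes that overlap 2 of the 9 were named outside this rule, after their values were seen. Some list genes that met the rule are not reported here.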

Additional observations from a re-analysis of the deposited data

How the results depend on the processing

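The median log2 fold change of the 9 genes stayed positive in every setting but one, between 0.08 and 0.15. Scaling to the Sertoli markers gave −0.092, with −0.16 for *Cldn11*, −0.092 for *Tjp1*, −0.088 for *F11r*, −0.17 for *Jam3* and −0.14 for *Cdh2*, and 0 members and 0 other junction genes then passed the relaxed cut-offs toward higher levels (0.331% of all loci). That scaling also moved the median of all loci to −0.23. The 7 other junction genes became 4 with library size only (2.54% of all loci) and 12 without the filter on low counts (2.97%). Without the filter 1 member, *Gja1*, had an adjusted p below 0.05, as did 1.11% of all loci. With each library left out, 0 to 3 members and 2 to 12 other junction genes passed, against 1.49% (without control replicate 2) to 5.48% (without Mps1sKO replicate 1) of all loci. *Cldn5* ranged from −0.0903 to 0.68 and *Jam3* from −0.0013 to 0.13. *Cldn3* passed toward lower levels with library size only, without the filter, with at least 10 counts in every library and on the Sertoli scale, as did 5.72%, 4.31%, 5.29% and 22.2% of all loci. The causes were not tested.

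Deviations of same-numbered libraries had a correlation of −0.19, and nothing in the labels says that a number marks a shared litter or day. With the replicate block, 4 other junction genes passed in place of 7 (1.72% of all loci), and *Gja1* kept the relaxed cut-offs. With the crossed pairing, chosen after seeing the data, 12 other junction genes passed (4.61% of all loci) and 1 member, *Gja1*, had an adjusted p below 0.05, as did 2.67% of all loci. *Cldn3* had the lowest depth of the 9 genes, at 33 to 58 counts per library.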
